A study of Mus musculus with 6 samples.

Results

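A set of 10 genes that move cholesterol out of cells and out of lysosomes were examined in epididymal adipose tissue of mice fed a high fat diet. They were picked by name: the liver X receptors (LXR) Nr1h2 and Nr1h3, the LXR target genes Abca1, Abcg1, Apoe and Pltp, the cholesterol-esterifying enzyme Soat1, and the lysosomal sterol genes Npc1, Npc2 and Lipa. All 10 were found among the 35275 genes of the deposited table, and all 10 passed the filter on low values. The 3 knockout samples came from male C57BL/6 mice with the genotype TfrcAKO. This is understood as loss of the transferrin receptor gene in adipocytes, although the labels neither spell out the abbreviation nor name a Cre driver. The 3 control samples came from Tfrcfl/fl males of the same strain, which carry loxP sites at both copies of that gene. Mice of both groups ate a diet with 60% fat for 10 weeks, starting at 2 months of age, and were 4.5 months old at sampling. Whether the samples are different animals is not stated in the labels, so the tests weigh only the spread among these libraries, which may be technical.

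Cells cannot break down the sterol ring, so a cell with too much cholesterol either stores it as ester or exports it. Lipoprotein and cell debris taken up by a cell reach the lysosome, where lysosomal acid lipase frees cholesterol from its esters and the NPC2 and NPC1 proteins pass it on through the lysosomal membrane. Oxysterols made from the excess activate LXR, which pairs with the retinoid X receptor and switches on transporters and carriers that hand cholesterol to high-density lipoprotein. In obese fat, both adipocytes and the macrophages that clear dying adipocytes use this route.

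Values are FPKM, fragments per kilobase of gene and per 1000000 gene-assigned reads, and depth was 25252839 to 30650624 such reads per sample. Differences are log2 fold changes, knockout minus control, on log2(FPKM + 0.5) from limma, and a gene was called at an adjusted p under 0.05 over all 14383 genes tested. Knockout replicate 3 stood apart on the first principal component (78.3% of the variance), at −60.9 against −21.7 and −25.2 for the other knockout samples, with control samples from 28.6 to 41.7. Tfrc itself was at 7.10, 8.27 and 9.499 FPKM in knockout samples, against 11.1, 13.2 and 11.9 FPKM in control samples, a log2 fold change of −0.52 (limma adjusted p = 0.0147). Mature adipocyte markers were high in every sample, with 11 genes summing to 18107 to 24363 FPKM in knockout and 6844 to 9975 FPKM in control tissue. The 4 markers of epididymal epithelium summed to at most 0.13 FPKM in any knockout sample and 0.02 FPKM in any control sample, with Lcn5 and Rnase9 listed at 0 in all.

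Acid lipase, Npc1, Soat1, Pltp and Abcg1 fell in the knockout, Nr1h3 rose, and Nr1h2, Abca1, Apoe and Npc2 were not called. Thus 6 of 10 members were called, against 43.5% of all tested genes. Of these 5 were lower, against 21.6% of all tested genes, and 1 was higher, against 21.9%. The knockout and control samples did not overlap for 6 members, a share close to the 60.1% of all tested genes. The knockout lay above for 1 member and below for 5, against 29.1% and 31% of all tested genes. Without knockout replicate 3, 5 members were lower and 2 higher, whereas without control replicate 2 or without control replicate 3 only Lipa and Npc1 stayed lower and none was higher. Members had a median log2 fold change of −0.36, and all tested genes one of −0.03. Members took 0.627% to 0.708% of reads in knockout and 0.716% to 0.843% in control samples, most of it in the knockout from Apoe.

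**Figure D1:**
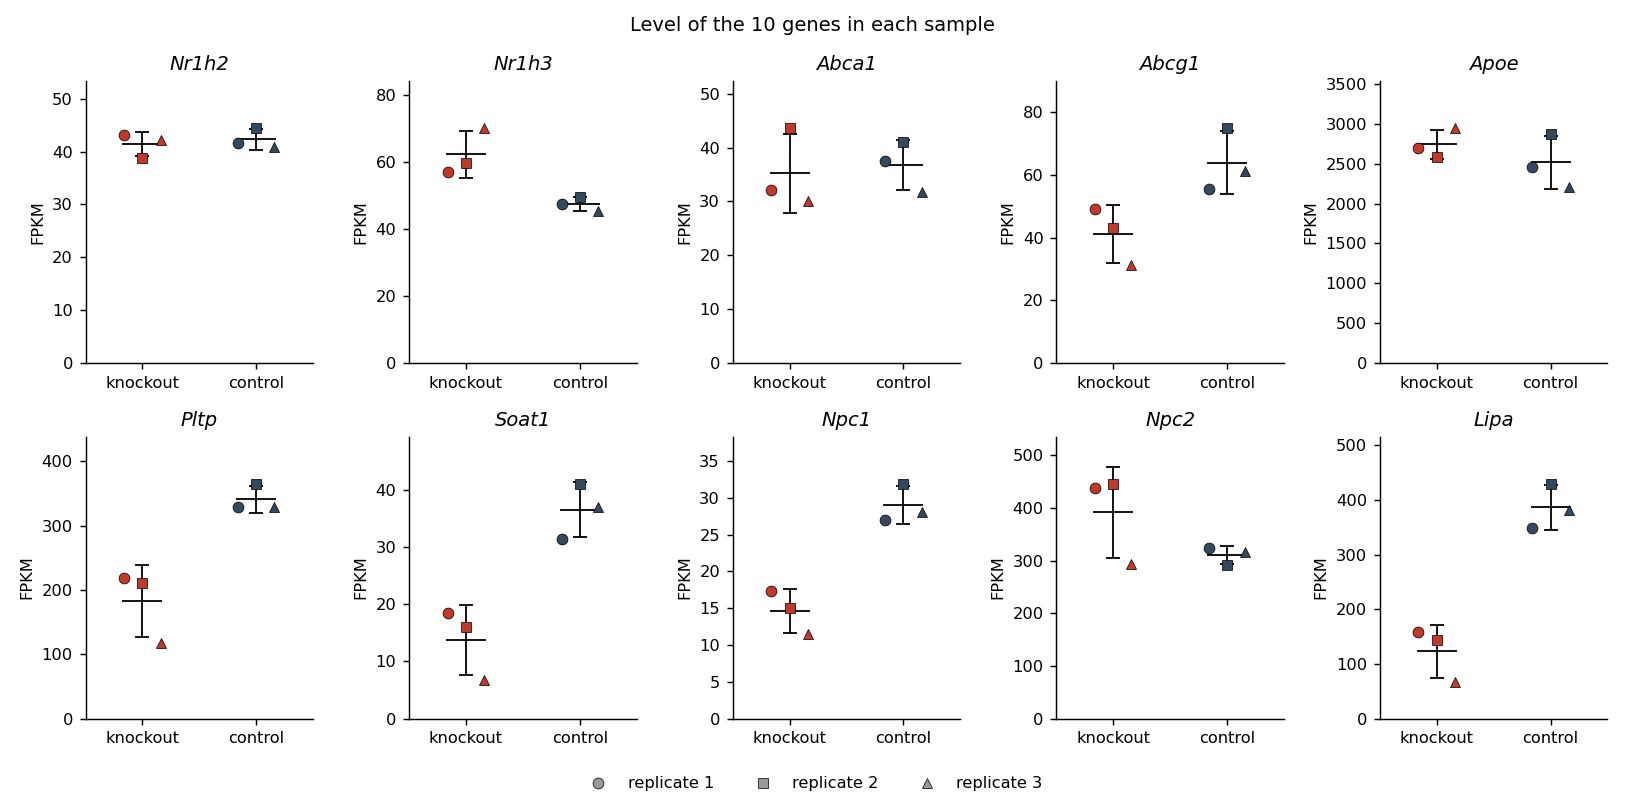
FPKM of each gene (vertical axes start at 0) in the 3 knockout samples (red, left) and 3 control samples (dark, right), with marker shape for the replicate number and bars for mean ± SD. Lipa, Npc1, Soat1, Pltp and Abcg1 lie wholly lower in the knockout, Nr1h3 lies wholly higher, and the groups overlap for Nr1h2, Abca1, Apoe and Npc2.

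**Figure D2:**
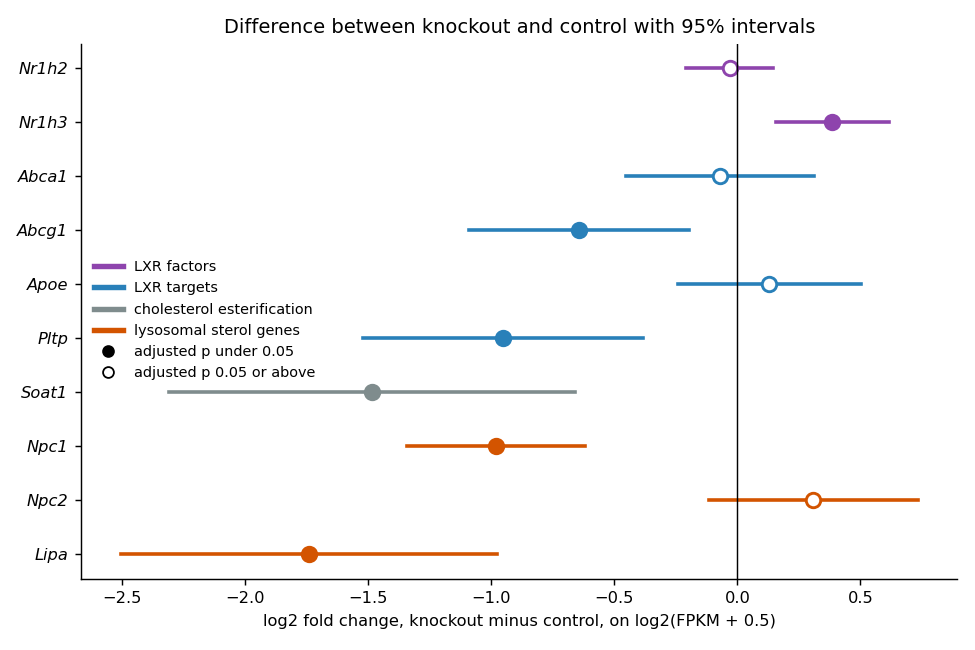
Log2 fold change of each gene, knockout minus control, with its 95% interval from limma, coloured by role and filled where the adjusted p was under 0.05. The estimates run from −1.74 for Lipa to 0.39 for Nr1h3, and the intervals of Nr1h2, Abca1, Apoe and Npc2 cross 0.

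Nr1h3 (LXRα, ENSMUSG00000002108, mm10 chromosome 2, 91184061 to 91202834, minus strand) is the form known from macrophages, liver and fat. It was at 57.0, 59.7 and 70.1 FPKM in knockout samples 1, 2 and 3 and at 47.3, 49.5 and 45.3 FPKM in control samples. Every knockout sample was above every control sample, and knockout replicate 3 was the highest. The log2 fold change was 0.39 ± 0.10 (SE, limma adjusted p = 0.0188). It missed the threshold when any 1 control sample was left out (limma adjusted p = 0.0542, 0.0515 and 0.0755 without replicates 1, 2 and 3) and with the replicate number as a block (0.0578).

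Nr1h2 (LXRβ, ENSMUSG00000060601, chromosome 7, 44549616 to 44553951, minus strand), the form made in most tissues, was at 43.2, 38.8 and 42.1 FPKM in knockout and at 41.6, 44.5 and 40.8 FPKM in control samples. These values interleave. Its log2 fold change was −0.03 with a 95% interval from −0.21 to 0.14 (limma adjusted p = 0.751). The Nr1h3 to Nr1h2 ratio of FPKM values, a comparison per length within each sample, was 1.51 ± 0.17 in knockout and 1.12 ± 0.02 in control tissue (SD, n = 3 each). All 3 knockout ratios (1.32, 1.54 and 1.66) exceeded the 3 control ratios, which lay between 1.11 and 1.14. On the log2 scale the ratio differed by 0.42, with an exact two-sided permutation p of 0.1, the smallest that 3 against 3 samples can give. Any ratio without overlap between the groups gives that value, so the test adds nothing to the separation.

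Abca1 (ENSMUSG00000015243, chromosome 4, 53030787 to 53159895, minus strand) encodes the transporter that loads cholesterol onto lipid-poor apolipoprotein A-I. It was at 32.2, 43.6 and 30.0 FPKM in knockout samples and at 37.4, 41.0 and 31.8 FPKM in control samples. Both groups ran from near 30 to above 40 FPKM, and the samples of the groups interleave. The log2 fold change was −0.07 with a 95% interval from −0.45 to 0.31 (limma adjusted p = 0.745).

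The Abca1 promoter is shown because it was the only member promoter, among 11 RefSeq windows (GRCm38.p6) for 8 of the 10 genes, that held any of the motifs searched. Abcg1 and Npc1 had no window. Each window runs from 250 bases before the gene start to 50 after it. The motifs, on both strands, were the nuclear receptor hexamer AGGTCA, DR4 (a direct repeat of that hexamer 4 bases apart, the textbook LXR element), the E-box CACGTG, the core TCACGTGA of the element bound by the lysosomal regulator TFEB, and the sterol regulatory element TCACNCCAC. Capitals below mark the E-box, 147 to 142 bases before the start, and a DR4-like stretch on the other strand, 67 to 52 bases before it. The window lies at chr4:53159846-53160145, minus strand.
Abca1 promoter: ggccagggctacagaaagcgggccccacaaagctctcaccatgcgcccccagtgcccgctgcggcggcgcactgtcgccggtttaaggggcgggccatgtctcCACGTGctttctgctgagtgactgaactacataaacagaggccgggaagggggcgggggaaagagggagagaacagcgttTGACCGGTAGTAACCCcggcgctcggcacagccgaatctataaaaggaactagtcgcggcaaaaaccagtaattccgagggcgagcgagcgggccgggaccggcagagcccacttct
DR4-like stretch, other strand: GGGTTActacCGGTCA
In the second line capitals mark the 2 hexamers. Counted from 1 at the 5′ end of that line, the stretch differs from a DR4 of AGGTCA hexamers by A1G, C5T and A11C. With at most 2 of the 12 set bases changed, as first specified, no member window held a DR4, against 3.02% of 32851 windows of all genes. Allowing 3 changes, a setting chosen after seeing the sequence, 21.9% of all windows held one, and the E-box was in 7.15%. A match of letters is a description and not evidence of binding.

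Abcg1 (ENSMUSG00000024030, chromosome 17, 31057698 to 31115777, plus strand), the transporter that gives cholesterol to mature high-density lipoprotein, fell. It was at 49.3, 43.1 and 31.2 FPKM in knockout samples, against 55.6, 75.0 and 61.2 FPKM in control samples. The groups did not overlap, but knockout replicate 1 was close to control replicate 1. On the log2 scale the change was −0.64 ± 0.19 (SE, limma adjusted p = 0.032), the least certain of the decreases. The limma adjusted p was 0.0604 without knockout replicate 2, 0.107 without control replicate 2 and 0.0811 without control replicate 3, and 0.0585 with no filter on low values.

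Apoe (ENSMUSG00000002985, chromosome 7, 19696109 to 19699166, minus strand), the apolipoprotein that macrophages and adipocytes secrete as an acceptor of cholesterol, was by far the most abundant member. It ranked 9th, 11th and 10th of 14383 tested genes in knockout samples and 11th, 8th and 13th in control samples. Its level was 2693, 2588 and 2947 FPKM in knockout samples and 2464, 2874 and 2213 FPKM in control samples. The groups overlapped. Its log2 fold change was 0.13 with a 95% interval from −0.24 to 0.50 (limma adjusted p = 0.529).

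Pltp (ENSMUSG00000017754, chromosome 2, 164839518 to 164857711, minus strand) encodes phospholipid transfer protein, which remodels high-density lipoprotein. It fell to 219, 211 and 118 FPKM in knockout samples, against 329, 366 and 329 FPKM in control samples. Knockout replicate 3 was the lowest by a wide margin, and the groups stayed apart. The fitted log2 change was −0.95 ± 0.24 (SE, limma adjusted p = 0.0194). Its limma adjusted p was 0.0506, 0.0719 and 0.0599 without control replicates 1, 2 and 3. In the GENCODE M21 annotation 495 exonic bases of Pltp, 19.3% of its exons, overlap Ctsa on the opposite strand. Ctsa, the lysosomal protective protein, also fell (log2 fold change −1.15 ± 0.19, SE, limma adjusted p = 0.00624), and without a stated strand setting the reads of the overlap cannot be told apart.

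Soat1 (ENSMUSG00000026600, chromosome 1, 156424525 to 156474331, minus strand) encodes the enzyme of the endoplasmic reticulum that turns free cholesterol into the esters of foam cell droplets. Its level was 18.4, 16.03 and 6.81 FPKM in knockout samples and 31.5, 41.1 and 37.0 FPKM in control samples. No knockout sample came near the control range, and knockout replicate 3 was far below the other knockout samples. On the log2 scale the change was −1.48 ± 0.35 (SE, limma adjusted p = 0.0154), which is 0.358 of control on that scale. It was −1.06 without knockout replicate 3. The call was lost without control replicate 2 (limma adjusted p = 0.0614) or control replicate 3 (0.0545). Soat2, the isoform of liver and intestine, was at 0.55 ± 0.19 FPKM in knockout and 0.57 ± 0.08 FPKM in control tissue (SD, n = 3 each; limma adjusted p = 0.838).

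Among the lysosomal genes, the lipase and the membrane protein fell while the soluble carrier was not called. Lipa (lysosomal acid lipase, ENSMUSG00000024781, chromosome 19, 34492318 to 34527474, minus strand) was at 158, 144 and 66.5 FPKM in knockout samples, against 348, 430 and 381 FPKM in control samples. Even the highest knockout value was below the lowest control value by a wide gap. Lipa changed the most of the 10, by −1.74 ± 0.32 on the log2 scale (SE), or 0.299 of control. Its limma adjusted p was 0.00803. The change was −1.35 without knockout replicate 3 (limma adjusted p = 0.000448).

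Npc1 (ENSMUSG00000024413, chromosome 18, 12189693 to 12236400, minus strand), the multi-pass protein of the lysosomal membrane whose loss causes Niemann-Pick type C disease, was at 17.4, 15.0 and 11.5 FPKM in knockout samples and at 27.0, 31.9 and 28.1 FPKM in control samples. Every knockout sample was below every control sample, and the coefficient of variation was 20.2% in knockout and 8.89% in control tissue. Its log2 fold change was −0.98 ± 0.15 (SE, limma adjusted p = 0.00541). Npc1 and Lipa passed the threshold in each of the 13 alternatives, including those that left out 1 sample. On the opposite strand Rmc1 (listed in the table as 3110002H16Rik) overlaps 4.52% of the exonic bases of Npc1, and its log2 fold change was 0.12 (limma adjusted p = 0.21).

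Npc2 (ENSMUSG00000021242, chromosome 12, 84754560 to 84773112, minus strand), the small soluble protein that carries cholesterol inside the lysosome, was at 437, 446 and 292 FPKM in knockout samples and at 324, 292 and 317 FPKM in control samples. Knockout replicates 1 and 2 were above every control sample, and knockout replicate 3 was level with the lowest one. The fitted log2 change was 0.31 with a 95% interval from −0.11 to 0.73 (limma adjusted p = 0.198). One library decided the call: without knockout replicate 3 the log2 fold change was 0.51 and the limma adjusted p 0.00183, whereas leaving out each other library gave a limma adjusted p from 0.265 to 0.444.

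Ratios between members were taken within each sample. The Npc2 to Npc1 ratio of FPKM values was 25.2, 29.7 and 25.4 in knockout samples and 12.02, 9.15 and 11.3 in control samples. Unlike the levels of Npc2, these ratios were close together in the 3 knockout samples, replicate 3 included, and lay apart from the control samples. The Npc2 to Lipa ratio was 2.77, 3.10 and 4.40 in knockout samples against 0.933, 0.679 and 0.832 in control samples, so Npc2 exceeded Lipa per length in every knockout sample and in no control sample. Apoe exceeded Pltp by 12.3, 12.2 and 24.95 times in knockout samples and by 7.48, 7.86 and 6.72 times in control samples. The Lipa to Npc1 ratio was lower in the knockout, at 9.10, 9.59 and 5.79 in knockout samples against 12.9, 13.5 and 13.5 in control samples, without overlap. The Abca1 to Abcg1 ratio overlapped between groups (0.875 ± 0.194 in knockout and 0.580 ± 0.082 in control tissue, SD, n = 3 each). These pairs were chosen with their values known, so no test is given. The share of all gene pairs whose ratio separates the groups was not computed.

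**Figure D3:**
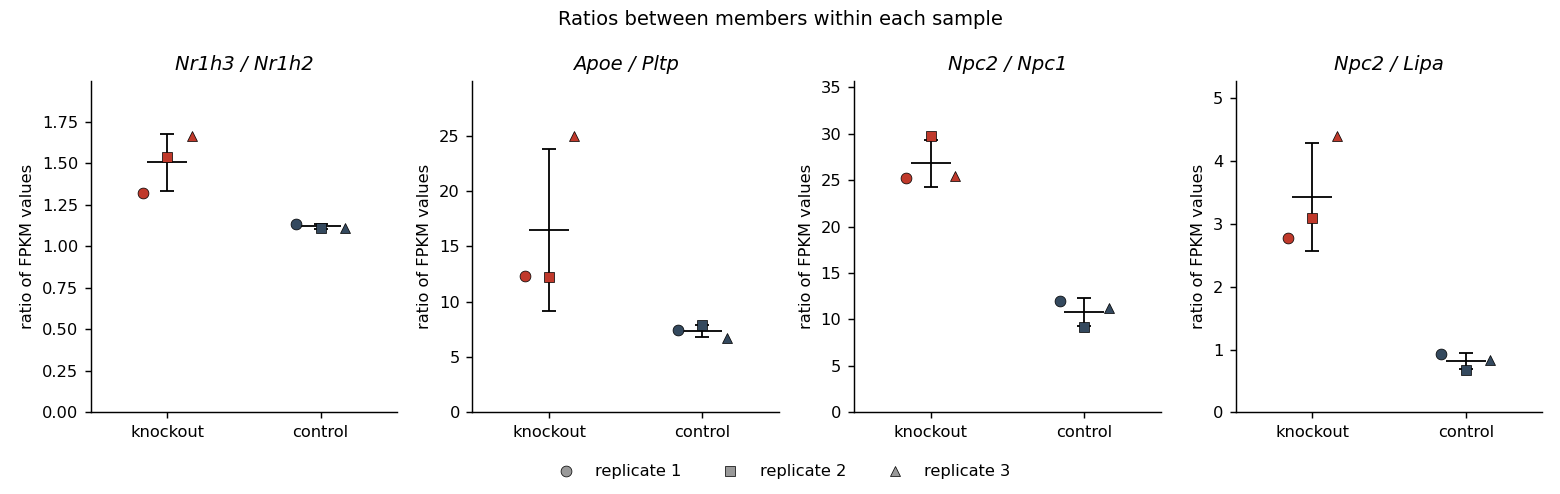
Ratio of FPKM values between 2 members within each of the 3 knockout samples (red, left) and 3 control samples (dark, right), axes from 0, bars for mean ± SD. The Nr1h3 to Nr1h2, Apoe to Pltp, Npc2 to Npc1 and Npc2 to Lipa ratios are higher in all 3 knockout samples than in the control samples. The Npc2 to Npc1 ratio runs from 25.2 to 29.7 in the knockout and from 9.15 to 12.02 in control tissue. The Lipa to Npc1 ratio, lower in the knockout, and the Abca1 to Abcg1 ratio, which overlaps, are not drawn.

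The LXR factors and targets were also set against the lysosomal sterol genes as groups, with no test. The mean log2 value over the 6 LXR genes was 6.79 ± 0.12 in knockout and 6.99 ± 0.12 in control tissue, and over the 3 lysosomal genes it was 6.45 ± 0.43 in knockout and 7.25 ± 0.07 in control tissue (SD, n = 3 each). Their difference within a sample was 0.11, 0.22 and 0.70 in knockout samples and −0.25, −0.19 and −0.35 in control samples. The mean of the 6 LXR genes was thus above that of the lysosomal genes in each knockout sample and below it in each control sample. This is an order of means and does not hold gene by gene. The change of sign in the difference of means depended on counting the receptors. The mean of the 4 LXR targets alone was above the lysosomal mean in every sample. It was higher by 0.71, 0.85 and 1.13 in knockout samples and by 0.48, 0.58 and 0.37 in control samples. Of the LXR targets 2 of 4 fell and none rose, and of the lysosomal genes 2 of 3 fell and none rose, against 21.6% of all tested genes lower and 43.5% called in either direction.

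The samples ranked alike for the genes that fell. For all 5, knockout replicate 3 was the lowest sample and control replicate 2 the highest. Those samples were also the ends of the first principal component over all tested genes (−60.9 and 41.7). The share of all tested genes with this order was not computed, so whether it is particular to the members is not known. The coefficient of variation between samples was larger in the knockout than in control tissue for 9 of the 10 members. How many of all tested genes had a larger value in the knockout was not computed. Soat1 was at 44.6% in knockout and 13.2% in control tissue, and Lipa at 40.1% in knockout and 10.7% in control tissue. Apoe was the exception, at 6.74% in knockout and 13.3% in control tissue.

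Cell type markers moved in the same samples, and their counts stand beside 21.6% of all tested genes that fell and 21.9% that rose. Of 14 macrophage markers 12 fell and none rose (none at 0 in any sample), and their summed level was 1486 to 3337 FPKM in knockout and 6088 to 7018 FPKM in control tissue. Of 8 markers of lipid-associated macrophages 7 fell and none rose, with sums of 357 to 1066 FPKM in knockout and 2527 to 3442 FPKM in control tissue. Of 11 mature adipocyte markers 10 rose and none fell. Their mean log2 value was highest in knockout replicate 3 (9.47), where the macrophage mean was lowest (4.96). In whole tissue, fewer cells of a type and less RNA per cell cannot be told apart, and the part of these shifts in the members' values was not tested. All 5 endothelial markers rose, all 3 mast cell markers fell, and 3 of 4 mesothelial markers rose. Of 3 tested neutrophil markers 2 fell. Of 5 progenitor and fibroblast markers 1 fell, close to the share over all tested genes. None of the 3 T cell and 3 B cell markers was called.

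The members were also set against the mean log2 value of each marker list in the same sample, as a description with no test. The marker means themselves differed between groups, so a gene with no change would lie 1.23 higher in the knockout relative to macrophage markers, 1.93 higher relative to lipid-associated macrophage markers and 1.76 lower relative to adipocyte markers. Relative to macrophage markers, Nr1h2, Nr1h3, Abca1, Abcg1, Apoe, Pltp and Npc2 lay higher in all 3 knockout samples than in the control samples, from 0.28 for Pltp to 1.62 for Nr1h3. These 7 of 10 compare with 91.1% of all tested genes. Soat1 and Npc1 overlapped between groups, at −0.25 and 0.25. Lipa lay lower in all 3 knockout samples, by 0.51 on the log2 scale, as did 1.48% of all tested genes. This is set against the mean of the markers. Their own log2 fold changes ran from −1.80 to −0.41, a range that holds that of Lipa (−1.74).

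Relative to the markers of lipid-associated macrophages Lipa was not lower. Its difference from their mean was 0.72, 0.92 and 1.05 in knockout samples and 0.70, 0.75 and 0.68 in control samples, which overlap. The other 9 members lay higher in the knockout without overlap, against 97.7% of all tested genes, and no member lay lower, against 0.0904%. Relative to adipocyte markers all 10 members lay lower in the knockout without overlap, from −1.38 for Nr1h3 to −3.50 for Lipa, as did 97.4% of all tested genes. None lay higher, against 0.16%.

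**Figure D4:**
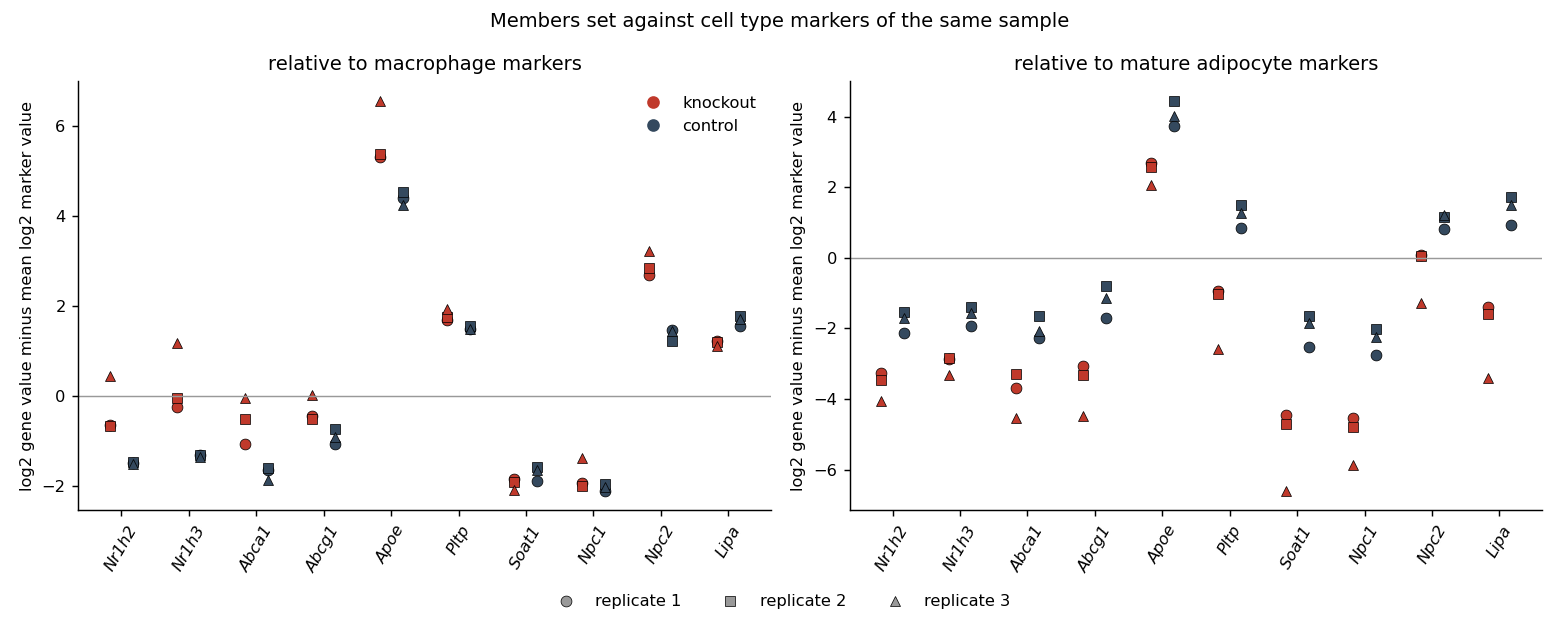
Log2(FPKM + 0.5) of each member minus the mean log2 value of 14 macrophage markers (left panel) or 11 mature adipocyte markers (right panel) of the same sample, for 3 knockout (red) and 3 control samples (dark). Against macrophage markers 7 members are higher, 1 lower and 2 overlap in the knockout, where a gene with no change would lie 1.23 higher; against adipocyte markers all 10 are lower, where a gene with no change would lie 1.76 lower.

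Other genes of LXR signalling moved both ways. Of 16 tested partners and further targets 6 rose and 4 fell, against 21.9% and 21.6% of all tested genes. The list median was 0.23, against −0.03 over all tested genes. Apoc1, a small apolipoprotein gene beside Apoe (chromosome 7, 19689484 to 19692658), rose to 111, 110 and 145 FPKM in knockout samples, against 35.8, 30.4 and 36.2 FPKM in control samples (log2 fold change 1.81 ± 0.13, SE, limma adjusted p = 0.00292). Its neighbour Apoe, described above, overlapped between groups, as did Apoc2 of the same cluster (log2 fold change −0.20, limma adjusted p = 0.408), which was named after its values were seen. Changes given as "rose by" or "fell by" are log2 fold changes ± SE. Scd1, the fatty acid desaturase, rose by 1.82 ± 0.30 and averaged 4228 ± 1658 FPKM in knockout and 1162 ± 283 FPKM in control tissue (SD, n = 3 each; limma adjusted p = 0.00624). Cd5l, a protein secreted by macrophages, fell to 1.40 ± 0.60 FPKM in knockout tissue, against 26.2 ± 5.22 FPKM in control tissue, and Smpdl3a, a phosphodiesterase induced by LXR in macrophages, fell by 0.65 ± 0.12 (limma adjusted p = 0.00267 and 0.00809). Abcg5 and Abcg8 did not pass the filter.

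Of 12 tested genes of efflux acceptors and cholesteryl ester and oxysterol enzymes, 3 rose and 1 fell, with a median of 0.06. Over all tested genes 21.9% rose and 21.6% fell. Nceh1, which hydrolyses cholesteryl esters outside the lysosome in macrophages, fell to 29.0, 27.4 and 11.0 FPKM in knockout samples, against 60.4, 71.7 and 64.6 FPKM in control samples (log2 fold change −1.64 ± 0.35, SE, limma adjusted p = 0.0117). Lipe, the hormone-sensitive lipase of adipocytes, which also acts on cholesteryl esters, rose by 1.74 ± 0.25 (limma adjusted p = 0.00462). Ces1d, a carboxylesterase of adipocytes, rose by 2.31 ± 0.27 and Cav1, the caveolar protein, by 1.38 ± 0.18 (limma adjusted p = 0.00372 and 0.0039). The 8 others were not called.

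Among lysosomal membrane, hydrolase and sterol transfer genes 12 of 20 tested fell and 2 rose, against 21.6% and 21.9% of all tested genes. The list median was −0.50. The decrease thus included genes beyond Lipa and Npc1. Gla, the α-galactosidase, fell to 14.4, 13.4 and 7.24 FPKM in knockout samples, against 31.7, 37.9 and 36.4 FPKM in control samples. Tfe3, a transcription factor of lysosomal genes, fell by 0.60 ± 0.08. Laptm4b, a lysosomal membrane protein, rose by 1.27 ± 0.13 and Smpd1, the acid sphingomyelinase, by 0.73 ± 0.11 (limma adjusted p from 0.00363 to 0.00527 for these 4). Only 7 fell when control replicate 2 or control replicate 3 was left out.

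In the pathway that makes and takes up cholesterol, 5 of 11 genes tested fell and none rose, with a median of −0.23. Of all tested genes 21.6% fell, 21.9% rose and 43.5% were called in either direction. Srebf2, which encodes the transcription factor switched on when cells lack sterol, fell by 0.74 ± 0.12 (limma adjusted p = 0.00603). Sqle, the squalene epoxidase of sterol synthesis, averaged 3.78 ± 0.417 FPKM in knockout and 9.09 ± 1.80 FPKM in control tissue (SD, n = 3 each). It fell by 1.15 ± 0.15 (limma adjusted p = 0.0041). In this list 6 genes were not called.

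**Figure D5:**
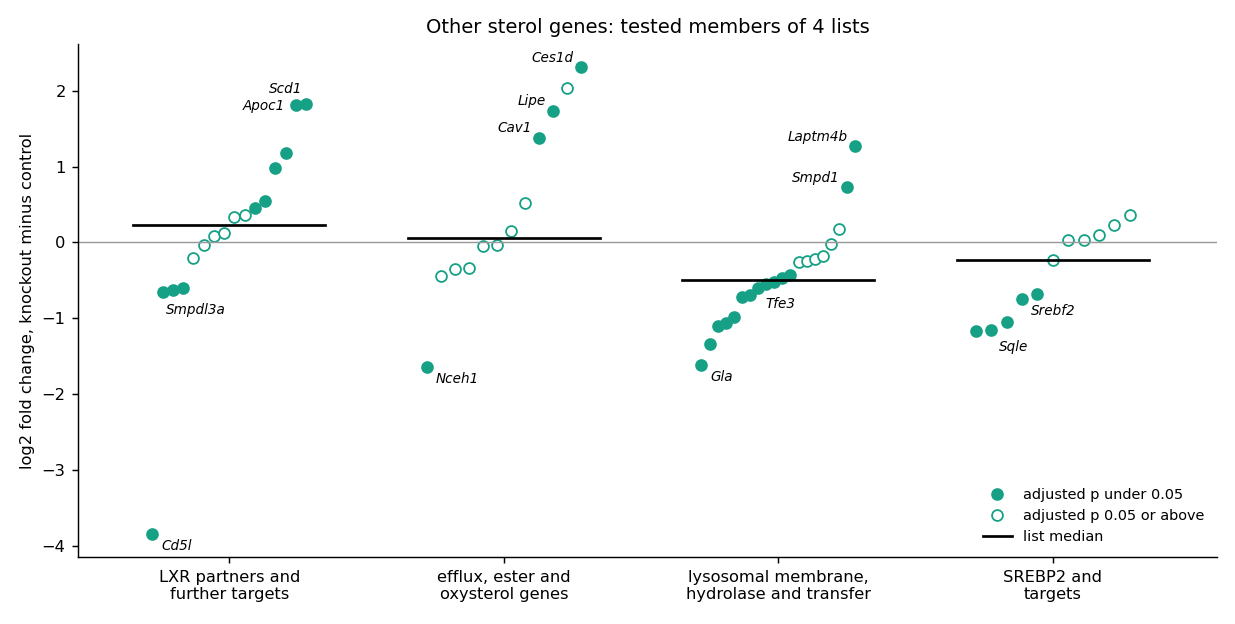
Log2 fold change, knockout minus control, of each tested gene in the 4 lists of other sterol genes, filled where the adjusted p was under 0.05, with the list median as a black line. The medians are 0.23, 0.06, −0.50 and −0.23 from left to right, and the lowest value is that of Cd5l at −3.84.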

How the data were processed

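Total RNA of 6 samples, 3 knockout and 3 control, was made into libraries with the NEBNext Ultra kit, per the labels' protocols. CASAVA, FastQC, STAR 2.5, HTSeq 0.6.1 and the build mm10 are named in the submitters' processing notes; strand setting, annotation release and read filters: not given in the sources used here. The deposited values are FPKM, 1 column per sample, per the file headers; FPKM times gene length summed to 1000000 in each sample. The values were whole multiples of 1 read within 0.01 (100% of those above 0), which gave the depths; 3 reads on a 2 kb gene are 0.0489 to 0.0594 FPKM, covering counting error only. Replicate pairs differed by more than counting noise (chi-square per degree of freedom 15.5 to 98.1).

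A gene was kept if 3 samples or more reached 0.5 FPKM. The main model was limma 3.58.1 in R 4.3.3 on log2(FPKM + 0.5) (trend and robust moderation, two-sided, Benjamini-Hochberg adjustment over 14383 genes), without a block. The procedure was tested on simulated reads with few changed genes and the same spread in every library, unlike these data. That test cannot give the error rate here. The limma-voom fit on recovered reads, scaled by median of ratios, called 6469 genes against 6253. Promoter windows came from RefSeq (GRCm38.p6), and 27 gene names turned into dates were restored through their identifiers. Members, lists and markers were chosen with earlier results of these data known. All members are named; from each list, up to 4 called genes with the smallest p, plus Tfrc; some genes this rule selects are not reported here. Soat2, Apoc2, Ctsa, Rmc1, Abcg5, Abcg8, Lcn5 and Rnase9 were named outside that rule. Figures used Python 3.11.15 and matplotlib 3.10.9.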

Additional observations from a re-analysis of the deposited data

How the results depend on the processing

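Of 130 values of the 10 members under 13 alternatives, 112 kept their direction and side of the threshold, and all 208 values of the 16 list genes chosen by the naming rule did. Leaving out 1 sample changed the most: members higher numbered 0 to 2 and members lower 2 to 5. Over all tested genes the numbers were 1903 to 2963 higher and 1283 to 3069 lower, with the fewest called without control replicate 2 (3336) or 3 (3421). In the same fits 7 to 14 lysosomal genes and 1 to 2 ester and efflux genes were lower. The log2 fold changes of 2 genes not called changed sign, ranging from −0.063 to 0.013 for Nr1h2 and from −0.23 to 0.035 for Abca1. With the replicate block 0 members were higher (Nr1h3 adjusted p = 0.0578 by limma), 5 were lower and 4581 genes were called over all. Same-numbered samples did not deviate together (correlations across genes of −0.24, 0.03 and −0.18). Differently numbered samples reached 0.23 (knockout replicate 3 with control replicate 1). Each deviation was taken from a mean of only 3 samples, so these correlations cannot exclude that the numbers pair the samples. Counts of other lists stayed within 1.5 times. With 3 samples a group, the exact permutation test of the receptor ratio cannot go below 0.1, or 0.2 with 1 sample left out. The fewest reads of any member in a sample were 1440 (Soat1, knockout replicate 3).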
